A study of Mus musculus with 8 samples.

Results

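The genes followed here mark the dividing cells of the neural tube, and they were measured in mouse embryos lacking Prdm12 and in wild-type embryos. They are Sox1, Sox2, Sox3, Pax6, Nkx6-1, Irx3, Msi1, Prom1, Nes and Vim. They were chosen by name as genes of neural tube progenitors and radial glia, and their symbols were matched to Ensembl identifiers, so that they make up 10 of the 38355 genes counted. RNA sequencing was done on thoracic dorsal root ganglia dissected together with the adjoining spinal cord of C57Bl6 embryos at E11.5. The KO group holds 4 libraries from embryos with the genotype Prdm12-/-, and the WT group holds 4 libraries from wild-type embryos of the same strain, age and tissue. The design text speaks of triplicates, whereas the labels list 4 libraries for each genotype, all of them used here. Prdm12 codes for a PRDM-family regulator of transcription that is needed in the ganglia for pain-sensing neurons and in the cord for V1 interneurons. What the allele lacks is not given by the labels, nor is whether a library came from 1 embryo or from a pool, so the p-values measure the spread between these libraries, which may be technical.

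The progenitors of the neural tube line the central canal, divide there and release neurons outwards. The SOXB1 factors SOX1, SOX2 and SOX3 hold these cells in the dividing state, and proneural factors counteract them when a cell leaves the cycle. Homeodomain factors such as PAX6, NKX6-1 and IRX3 divide the progenitors into domains along the dorsoventral axis, and each domain gives rise to its own classes of neurons. The RNA-binding protein MSI1, the membrane protein prominin 1 and the intermediate filaments nestin and vimentin are general features of the progenitors and of the radial glia that follow them. Several of these genes are also used outside the neural tube. Vim is a gene of mesenchyme, Nes of young muscle and vessels, and Sox2 of the crest-derived glia of the ganglia.

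The libraries held between 23088908 and 67782435 gene counts. WT replicate 1 was the deepest, at 2.55 times the median of the other 7. Prdm12 stood at 0.962 to 1.55 counts per 1000000 (CPM) in KO and at 22.2 to 39.55 CPM in WT, and its log2 fold change was −4.70 (SE 0.24; edgeR adjusted p = 0.000124). CPM here are counts scaled to the library's size after trimmed-mean normalization. Neurons of the ganglia were present in every library, with a summed level of 12 sensory neuron genes of 454 to 521 CPM in KO and 473 to 645 CPM in WT. Of 16068 genes tested across the whole table with edgeR's quasi-likelihood test, 48 passed at an adjusted p under 0.05, which is 0.299% of them, 9 higher (0.056%) and 39 lower (0.243%) in KO.

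Sox1, Sox2 and Sox3 are intronless genes, and the part of their coding sequence that is most alike is shown because reads from such a part can be hard to assign to a single copy. The stretch lies in the HMG box, the DNA-binding domain that gives SOX proteins their name. The 120 bases come from the GENCODE M21 transcripts on GRCm38 and read 5′ to 3′ along the coding strand. Capitals mark the positions at which the 3 genes do not all have the same base.
Sox1 (chr8:12396508-12396627, plus strand): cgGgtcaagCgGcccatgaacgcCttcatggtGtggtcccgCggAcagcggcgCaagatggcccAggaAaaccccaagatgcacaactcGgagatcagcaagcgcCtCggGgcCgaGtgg
Sox2 (chr3:34650539-34650658, plus strand): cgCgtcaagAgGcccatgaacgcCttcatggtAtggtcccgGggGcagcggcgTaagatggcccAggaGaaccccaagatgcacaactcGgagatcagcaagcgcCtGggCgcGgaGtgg
Sox3 (chrX:60892885-60893004, minus strand): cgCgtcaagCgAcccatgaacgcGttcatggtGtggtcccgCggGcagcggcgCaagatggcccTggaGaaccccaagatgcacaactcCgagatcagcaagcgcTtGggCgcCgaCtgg

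All 3 genes had the same base at 104 of these 120 positions (86.7%). Between pairs, identity was 91.7% for Sox1 and Sox2, 90.8% for Sox2 and Sox3 and 90.8% for Sox1 and Sox3. Over the whole coding sequences the longest run shared letter for letter was 45 bases, between Sox1 and Sox3. It was 38 bases between Sox1 and Sox2 and 32 bases between Sox2 and Sox3. The read length and the handling of reads that match several places were not given in the sources used here, so the SOXB1 counts are uncertain to the extent that reads fell in this stretch.

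Bases upstream of the start are shown for Sox2 and Vim, which had the smallest p of the 10 genes and the single pair of groups without overlap. They were taken from RefSeq on GRCm38.p6 and cover the 250 bases before the RefSeq start on the gene's strand. In GENCODE M21 Vim begins at 13573927, so its window lies inside the gene by that annotation. Sox2 begins there at 34650405, so its window, which ends at 34649994, stops short of the start by that annotation. Capitals mark matches on either strand to the SOX core ACAAAG, the octamer core ATGCAAA, the CCAAT box (CCAAT) or the TATA box (TATAAA), which did not overlap one another here.
Sox2 (chr3:34649745-34649994, plus strand): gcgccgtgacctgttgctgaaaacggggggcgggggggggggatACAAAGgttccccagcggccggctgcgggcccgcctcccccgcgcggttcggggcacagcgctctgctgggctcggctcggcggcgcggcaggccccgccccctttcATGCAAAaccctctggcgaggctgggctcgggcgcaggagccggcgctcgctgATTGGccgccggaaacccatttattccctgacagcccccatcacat
Vim (chr2:13574061-13574310, plus strand): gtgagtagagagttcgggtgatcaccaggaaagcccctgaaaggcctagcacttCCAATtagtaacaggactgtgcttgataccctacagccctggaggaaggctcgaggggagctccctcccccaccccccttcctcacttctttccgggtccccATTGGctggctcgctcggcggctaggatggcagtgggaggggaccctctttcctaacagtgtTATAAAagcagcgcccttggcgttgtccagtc

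The Sox2 window held 1 SOX core, 1 octamer core and 1 CCAAT box, and the Vim window held 2 CCAAT boxes and a TATA box that began 32 bases before the start. Of 32851 such windows in the table, 16.5% held the SOX core, 4.12% the octamer core, 33.8% the CCAAT box and 12.4% the TATA box. Windows were found for 8 of the 10 genes, the others being Sox3 and Msi1. Among the 8 genes, the SOX core was also found in 1 of the Pax6 windows, the CCAAT box in 1 window each of Sox1, Pax6 and Prom1, the octamer core only in that of Sox2 and the TATA box only in that of Vim. A match is a description of the letters and not of binding.

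All 10 genes were tested, and 0 passed in either direction (edgeR quasi-likelihood test, adjusted p between 0.632 and 0.999), against the 0.299% of all genes that did. DESeq2 also called 0 of the 10, against 0.498% of the genes it tested. At an unadjusted p under 0.05 there were 3 of the 10 (Sox2, Sox3 and Vim, each lower in KO) by edgeR, beside 6.35% of all genes tested in either direction and 3.32% in the lower direction. By DESeq2 there were also 3, beside 3.67% of all genes with a p. The log2 fold change was below 0 in 8 of the 10 genes, beside 51.6% of all tested genes, and its median was −0.11, beside −0.003 over all genes. The 95% intervals of the fold, not adjusted for the number of genes, all lay within 0.68 to 1.304. In 1 of the 10 (Vim) the groups did not overlap, with KO lower, beside 2.45% of all tested genes, and in 0 of the 10 did they separate with KO higher, beside 1.69%. With 0 of the 10 passing, a decrease was not established. The tissue is a mixture, and several of these genes are also used outside the neural tube. For the values below 0, fewer progenitors, less of the RNA per progenitor and a difference in other cells cannot be told apart.

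**Figure D1:**
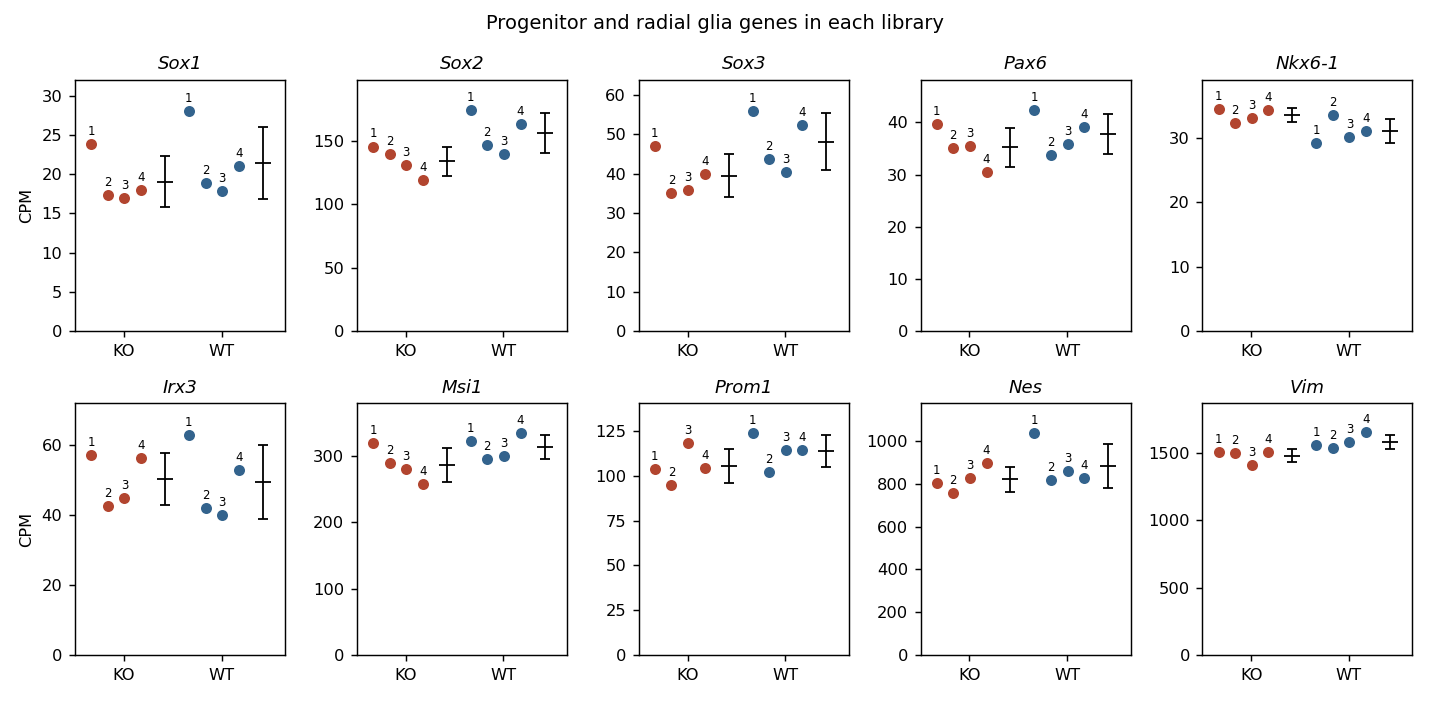
CPM of each of the 10 genes in the 4 KO (red, left) and 4 WT (blue, right) libraries, numbered by replicate, with the group mean ± SD (n = 4) in black to the right of each group. The groups overlap in every panel but that of Vim, where the KO libraries lie at 1410 to 1513 CPM and the WT libraries at 1540 to 1658 CPM.

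The SOXB1 genes stood at lower mean values in KO, with overlapping groups. Sox2, which maintains the progenitor state most widely, had 145, 139.5, 130.4 and 119 CPM in KO replicates 1 to 4, against 174, 147, 139 and 163 CPM in WT replicates 1 to 4. The means were 134 ± 11.45 CPM in KO and 156 ± 15.75 CPM in WT (SD, n = 4 each). The 2 highest KO libraries lay above the lowest WT library, and WT replicates 1 and 4 were the highest of the 8. The fold was 0.857, with a 95% interval of 0.76 to 0.967 (log2 fold change −0.22, SE 0.08; edgeR adjusted p = 0.632).

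Sox3, the X-linked member of the group, had 46.9, 35.1, 35.8 and 39.96 CPM in KO replicates 1 to 4, against 55.9, 43.8, 40.4 and 52.3 CPM in WT replicates 1 to 4. KO replicate 1 lay above WT replicates 2 and 3, and the other KO libraries lay below all WT libraries. Its log2 fold change of −0.29 was the deepest of the 10 genes (SE 0.12; fold 0.818, interval 0.68 to 0.984; edgeR adjusted p = 0.743). Sox1, the gene of the group that is most restricted to the neuroepithelium, had 23.8, 17.3, 16.95 and 18.01 CPM in KO replicates 1 to 4, against 28.0, 18.8, 17.9 and 21.1 CPM in WT replicates 1 to 4. Replicate 1 was the highest of each genotype, and the other libraries of both groups lay between 16.95 and 21.1 CPM. Its fold was 0.882, with an interval of 0.692 to 1.125 (log2 fold change −0.18, SE 0.16; edgeR adjusted p = 0.928).

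The patterning factors showed smaller differences of mixed sign. Pax6, a paired homeodomain factor of all but the most ventral progenitors, had 39.8, 35.1, 35.5 and 30.6 CPM in KO replicates 1 to 4, against 42.4, 33.7, 35.8 and 39.1 CPM in WT replicates 1 to 4. The groups overlapped, with KO replicate 4 the lowest of the 8 and WT replicate 1 the highest (log2 fold change −0.10, SE 0.09; fold interval 0.815 to 1.07). Irx3, an Iroquois factor of the dorsal and intermediate progenitors, had 57.1, 42.6, 44.9 and 56.3 CPM in KO replicates 1 to 4, against 62.9, 41.8, 39.9 and 52.7 CPM in WT replicates 1 to 4. Both groups split into a pair of higher libraries, replicates 1 and 4, and a pair of lower ones, replicates 2 and 3. Its log2 fold change was 0.02 (SE 0.16), and the fold interval, 0.785 to 1.304, was the widest of the 10 on the log scale.

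Nkx6-1, a repressor that defines the ventral progenitors from which V2 interneurons and motor neurons arise, was the other gene with a value above 0. It had 34.5, 32.3, 33.1 and 34.4 CPM in KO replicates 1 to 4, against 29.2, 33.6, 30.2 and 31.1 CPM in WT replicates 1 to 4. WT replicate 2 lay above 2 of the KO libraries, and the other WT libraries lay below all of them. Its coefficient of variation was the smallest of the 10 in KO, 3.1%, and was 6.0% in WT (log2 fold change 0.11, SE 0.06; fold 1.08, interval 0.992 to 1.18; edgeR adjusted p = 0.822).

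Msi1, which encodes the RNA-binding protein Musashi 1, had 318.5, 289, 280.1 and 257 CPM in KO replicates 1 to 4, against 322, 295.5, 300.2 and 334 CPM in WT replicates 1 to 4. KO replicate 1 lay within the WT range and the other KO libraries below it (log2 fold change −0.13, SE 0.07; edgeR adjusted p = 0.823). Prom1, which encodes the apical membrane protein prominin 1 (CD133), had 104, 95.04, 118 and 104 CPM in KO replicates 1 to 4, against 124, 102, 114 and 114 CPM in WT replicates 1 to 4. The groups overlapped (log2 fold change −0.11, SE 0.07; edgeR adjusted p = 0.90).

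The intermediate filament genes Nes and Vim gave between 75.1% and 78.5% of the reads of the 10 genes in each library. Nes, which encodes nestin, had 803, 756, 829 and 899 CPM in KO replicates 1 to 4, against 1037, 820.3, 860.1 and 826 CPM in WT replicates 1 to 4. WT replicate 1 stood apart on the high side, and the other WT libraries lay inside the KO range (log2 fold change −0.11, SE 0.08; edgeR adjusted p = 0.91). Vim, which encodes vimentin, had 1513, 1499, 1410 and 1507 CPM in KO replicates 1 to 4, against 1563, 1540, 1585 and 1658 CPM in WT replicates 1 to 4. Every KO library was below every WT library. The difference was small, a fold of 0.934 with an interval of 0.878 to 0.995, and it did not pass the test (log2 fold change −0.10, SE 0.04; edgeR adjusted p = 0.743).

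**Figure D2:**
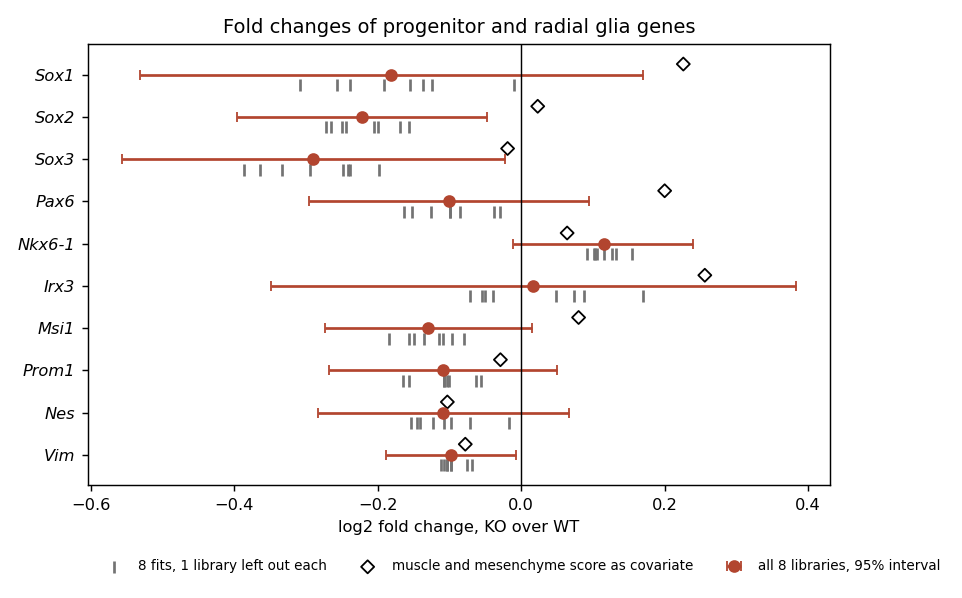
Log2 fold change of KO over WT for each of the 10 genes with all 8 libraries (red, bars are 95% intervals), with each library left out in turn (grey ticks) and in the fit that holds the level of muscle and mesenchyme genes as a covariate (open diamonds). The intervals of Sox2, Sox3 and Vim lie below 0 before adjustment. With the covariate Sox2 stands at 0.02, Sox3 at −0.02 and Vim at −0.08.

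Per kilobase of annotated exon, the order of the 10 genes by mean level was the same in both genotypes. Vim led with 312.5 ± 10.2 CPM per kb in KO and 334 ± 10.8 in WT (SD, n = 4 each), followed by Nes with 128 ± 9.28 in KO and 138 ± 15.97 in WT. Sox2 came next at 64.9 ± 5.57 CPM per kb in KO and 75.7 ± 7.66 in WT, and Msi1 at 49.3 ± 4.40 in KO and 53.96 ± 3.16 in WT. The ranges of these 4 genes did not overlap with one another in either genotype.

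Sox3, at 19.1 CPM per kb in KO and 23.3 in WT, and Irx3, at 18.2 in KO and 17.9 in WT, had overlapping ranges in each genotype, as did Irx3 and Prom1, at 14.7 in KO and 15.8 in WT. Nkx6-1 followed at 10.7 CPM per kb in KO and 9.89 in WT, and Sox1 at 3.94 in KO and 4.44 in WT. Pax6 was last at 3.01 CPM per kb in KO and 3.23 in WT, over 11694 annotated bases that join many alternative exons, so its level per kilobase is a low estimate. The same measure put Sox2 well above Sox1 and Sox3 in all 8 libraries.

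The high libraries were largely the same from gene to gene. Within KO, replicate 1 had the highest value for 8 of the 10 genes, the others being Prom1 (replicate 3) and Nes (replicate 4). Within WT, replicate 1 had the highest value for 7 of the 10, the others being Nkx6-1 (replicate 2) and Msi1 and Vim (replicate 4). The median deviation of the 10 genes from their own mean over the 8 libraries was 0.09, −0.11, −0.11 and −0.09 log2 units in KO replicates 1 to 4, and 0.25, −0.03, −0.03 and 0.10 log2 units in WT replicates 1 to 4. KO replicate 1 thus stood above WT replicates 2 and 3 on this measure. The coefficient of variation among libraries of a genotype was largest for Sox1 (17.0% in KO, 21.3% in WT) and Irx3 (15.0% in KO, 21.6% in WT).

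**Figure D3:**
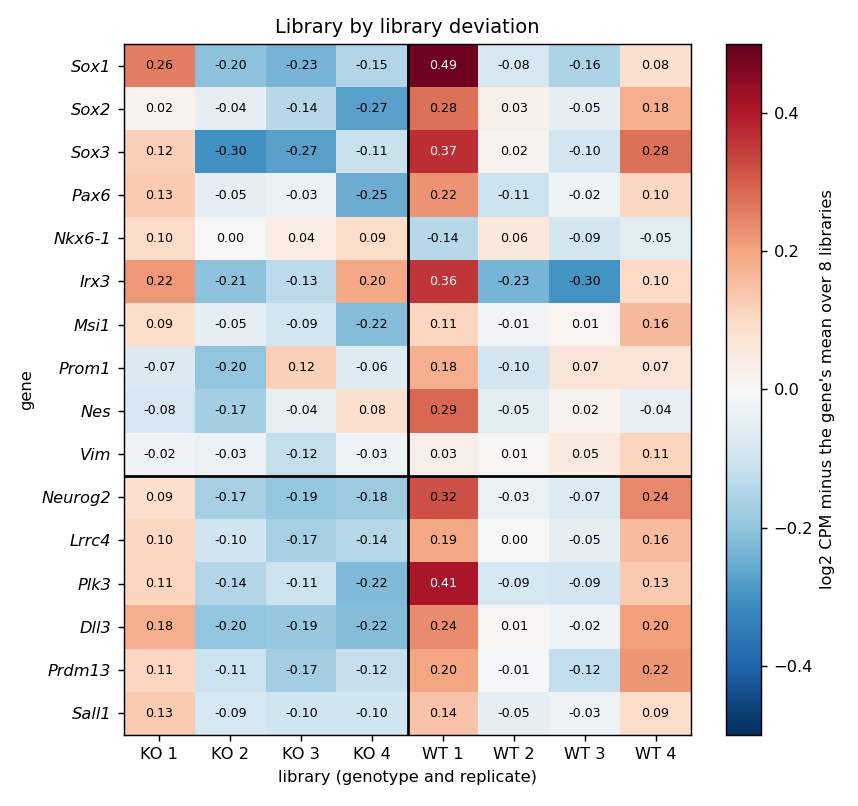
Deviation of log2 CPM from each gene's own mean over the 8 libraries, for the 10 genes (above the line) and the 6 genes most like the SOXB1 mean (below it), with KO libraries on the left and WT libraries on the right. KO replicate 1 is at 0.26 for Sox1 and 0.12 for Sox3, and WT replicate 1 at 0.49 for Sox1 and 0.37 for Sox3, while Nkx6-1 is at 0.10 in KO replicate 1 and at −0.14 in WT replicate 1.

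Without WT replicate 1 several of the differences were near 0. The log2 fold change was then −0.01 for Sox1, −0.02 for Nes, −0.03 for Pax6 and −0.06 for Prom1, and Irx3 stood at 0.17. Sox2, at −0.16 (SE 0.07), Sox3, at −0.20 (SE 0.12), Msi1, at −0.11 (SE 0.07), and Vim, at −0.10 (SE 0.04), lay further below 0. The median of the 10 was −0.04 without that library, and 0 of the 10 passed (smallest edgeR adjusted p = 0.621). Leaving out KO replicate 1 instead gave −0.31 for Sox1, −0.265 for Sox2, −0.39 for Sox3, −0.16 for Pax6 and −0.185 for Msi1. Irx3 was then at −0.05, Prom1 at −0.10, Nes at −0.10, Vim at −0.11 and Nkx6-1 at 0.10. The median was −0.14 in that fit, and 0 of the 10 passed (smallest edgeR adjusted p = 0.49).

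Outside the 10 genes, those whose log2 CPM followed the mean of Sox1, Sox2 and Sox3 most closely over the 8 libraries were Neurog2, Lrrc4, Plk3, Dll3, Prdm13 and Sall1. They were the 6 highest by Pearson correlation among 10532 genes with a mean of at least 10 CPM, with r between 0.941 and 0.984 and Spearman's rho between 0.881 and 0.976, so that their r is high by choice and carries no test. Neurog2, a proneural factor that starts neurogenesis in the neural tube, had 47.1, 39.5, 38.8 and 39.1 CPM in KO replicates 1 to 4, against 55.5, 43.35, 42.3 and 52.4 CPM in WT replicates 1 to 4. Its high libraries were those of the SOXB1 genes, and its log2 fold change was −0.24 (SE 0.10; edgeR adjusted p = 0.743). Dll3, a divergent Notch ligand of cells leaving the cycle, ranged from 50.1 to 65.96 CPM in KO and from 57.2 to 68.6 CPM in WT. Prdm13, a transcription factor gene of the dorsal neural tube, ranged from 30.7 to 37.3 CPM in KO and from 31.75 to 40.4 CPM in WT. These values share the libraries and their scaling with the SOXB1 values.

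The counted genes that overlap the 10 and averaged at least 1 CPM were low beside them. Sox1ot, which spans Sox1 on the same strand (chromosome 8, 12385771 to 12436768), averaged 1.78 ± 0.51 CPM in KO and 1.252 ± 0.41 CPM in WT (SD, n = 4 each). Irx3os, antisense to Irx3 with 124 exonic bases in common, averaged 2.35 ± 0.148 CPM in KO and 2.09 ± 0.289 CPM in WT. Gm16401, antisense to Prom1 with 424 exonic bases in common, averaged 3.47 ± 0.403 CPM in KO and 3.17 ± 0.574 CPM in WT (SD, n = 4 each). None of the 3 passed (edgeR adjusted p between 0.853 and 0.946). No source used here states whether counting used strand, so reads of an antisense gene and its partner cannot be told apart with certainty.

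A wider list of 20 progenitor and radial glia genes also held no called gene. Of the 20, 0 passed in either direction (edgeR; 5 at an unadjusted p under 0.05), 13 lay below 0 and 7 above, and the median log2 fold change was −0.10. The smallest p belonged to Cdh2, the N-cadherin of the apical junctions, with 227 ± 6.75 CPM in KO and 247 ± 4.15 CPM in WT (SD, n = 4 each; log2 fold change −0.12). Hes5, a Notch target that holds back neurogenesis, had a log2 fold change of −0.21 (edgeR adjusted p = 0.643). The inhibitor of differentiation gene Id4 had one of −0.20 (edgeR adjusted p = 0.731). Among the 7 genes above 0 were Hes1 (0.075), Sox9 (0.083), Sox21 (0.092) and Slc1a3 (0.119).

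Of 15 factors that mark single dorsoventral domains, 14 were tested and 0 passed (edgeR; 1 at an unadjusted p under 0.05), with 11 below 0, 3 above and a median log2 fold change of −0.09. The smallest p was that of Dbx1, the factor of the p0 domain, with 19.3 ± 1.22 CPM in KO and 16.1 ± 2.53 CPM in WT (log2 fold change 0.25, SE 0.10; edgeR adjusted p = 0.731). Without WT replicate 1 Dbx1 passed, at a log2 fold change of 0.38 (SE 0.075; edgeR adjusted p = 0.0386). The dorsal factors Pax3 and Msx1 had log2 fold changes of −0.17 and −0.18. Of 15 proliferation genes 0 passed (edgeR; 0 at an unadjusted p under 0.05), and their log2 fold changes lay between −0.08 and 0.06, with Ccnd1 at −0.06, Mcm2 at −0.08 and Ccnb2 at −0.05.

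Genes of postmitotic neurons and of the crest-derived ganglia were read in the same libraries. All 12 pan-neuronal genes lay below 0, with a median log2 fold change of −0.15, and 0 passed (edgeR; 7 at an unadjusted p under 0.05). Their smallest p belonged to Nefm (−0.29, adjusted p = 0.0916), Elavl4 (−0.23) and Nefl (−0.17), and Nefm passed without WT replicate 1 (−0.34, adjusted p = 0.00191), with DESeq2 and with no filter on low counts (adjusted p = 0.0354). Of the 12 sensory neuron genes 3 fell, among them Tlx2 (−0.74) and Pou4f1 (−0.52), and 9 did not pass. Pou4f1, a POU homeodomain factor of sensory neurons, averaged 65.3 ± 4.69 CPM in KO and 93.9 ± 9.37 CPM in WT (SD, n = 4 each; edgeR adjusted p = 0.0188). With DESeq2 on all libraries 4 of the 12 passed, among them Tlx3 (−0.52, DESeq2 adjusted p = 0.0246). Without WT replicate 1, 5 of the 12 passed by edgeR, among them Drgx and Tlx3. Pou4f1 did not pass without any 1 of the other 7 libraries, nor Tlx2 without KO replicate 3, KO replicate 4 or WT replicate 4. Of 8 crest and ganglion glia genes, Foxd3 fell (−0.57, edgeR adjusted p = 0.0303) and 7 did not pass, among them Erbb3 (0.13). Foxd3 passed without WT replicate 1 and did not pass without any 1 of the other 7 libraries.

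**Figure D4:**
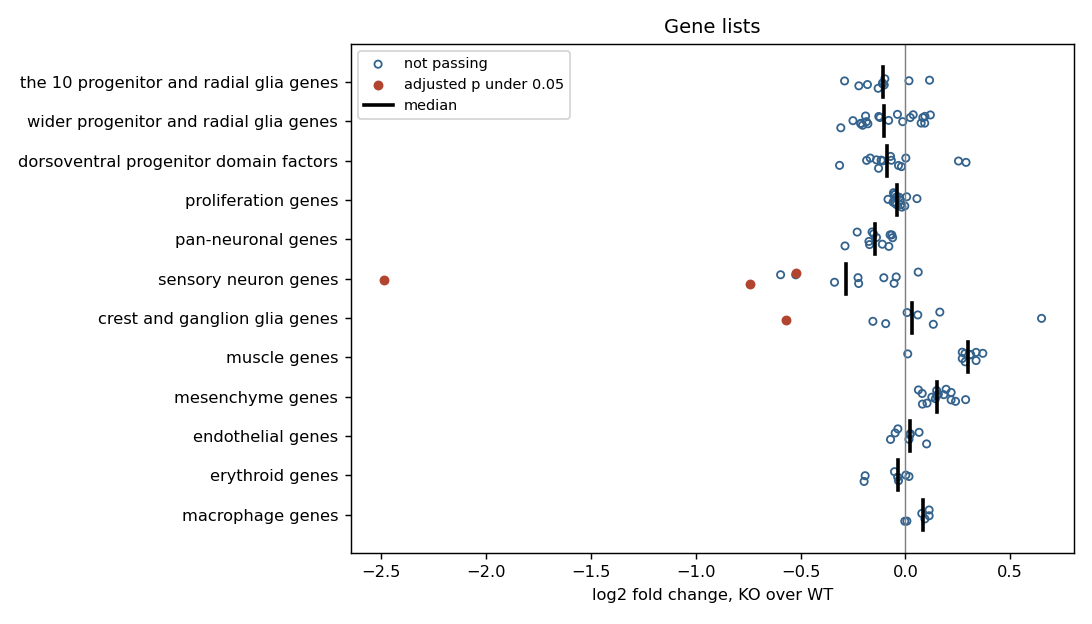
Log2 fold change of KO over WT of every tested gene of the 12 lists, with filled red points for genes that passed at an adjusted p under 0.05, open points for the others and a black bar at each median. The 10 progenitor and radial glia genes centre at −0.11, the pan-neuronal genes at −0.15, the muscle genes at 0.30 and the mesenchyme genes at 0.15.

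Genes of the tissue around the neural tube lay above 0. All 10 muscle genes lay above 0, with a median log2 fold change of 0.30, and so did all 15 mesenchyme genes, with a median of 0.15, while 0 of either list passed (edgeR; 7 and 3 at an unadjusted p under 0.05). The muscle genes summed to 869.5 to 1274 CPM in KO and 790.5 to 930 CPM in WT, and the mesenchyme genes to 4996 to 5740 CPM in KO and 4142 to 5284 CPM in WT. No marker of either list was at 0 in all libraries. The lowest mesenchyme sum, 4142 CPM, was that of WT replicate 1, the library with the highest SOXB1 values. WT replicate 1 also had the lowest WT sums of other lists. These were the sensory neuron (473 CPM), pan-neuronal (5427 CPM), crest and ganglion glia (595 CPM) and erythroid genes (3044 CPM). Its muscle (806.5 CPM), endothelial (437 CPM) and macrophage (68.7 CPM) sums were not the lowest of WT. Myod1, Tnnc1 and Des had log2 fold changes of 0.34, 0.37 and 0.28, and Pdgfra, Lum and Nkx3-2 of 0.16, 0.18 and 0.29.

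With the mean log2 CPM of these muscle and mesenchyme genes as a covariate, the log2 fold change was 0.23 for Sox1 (SE 0.17), 0.02 for Sox2 (SE 0.07), −0.02 for Sox3 (SE 0.15) and 0.20 for Pax6 (SE 0.07). It was 0.26 for Irx3 (SE 0.24) and 0.08 for Msi1 (SE 0.06), while Nes stood at −0.10 (SE 0.13) and Vim at −0.08 (SE 0.07). The edgeR adjusted p of each of the 10 was 1.0 in this fit. At an unadjusted p under 0.05 there was 1 of the 10 by edgeR (Pax6, higher in KO), beside 463 of 16068 genes tested. The covariate itself ranged from 6.497 to 6.793 log2 CPM in KO and from 6.355 to 6.526 log2 CPM in WT, higher on average in KO, and with it 0 of the sensory neuron and 0 of the crest and ganglion glia genes passed by edgeR. What part of the differences goes with the mixture of tissue and what part with genotype cannot be told apart.

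The other cell types showed no called gene. The endothelial genes (8 tested, median log2 fold change 0.02, with Tie1 at 0.10, Tek at −0.07 and Cdh5 at 0.07), the erythroid genes (7 tested, median −0.04, with Hbb-bh1 at −0.19 and Hba-x at −0.05) and the macrophage genes (6 tested, median 0.09, with Mrc1 at 0.11, C1qb at 0.11 and C1qa at 0.09) each had 0 genes passing and 0 at an unadjusted p under 0.05 by edgeR. Summed, the endothelial genes ranged from 429 to 506 CPM in KO and from 427 to 490 CPM in WT. The erythroid sum varied widely within KO, from 2165 to 5038 CPM, against 3044 to 3966 CPM in WT. The part of these cell types in the values of the 10 genes was not tested.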

How the data were processed

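Raw counts per gene were the deposited values, 1 file per library, and the 5 summary rows in each file held 0 counts and were left out. Per the submitters' processing notes the authors used mm10, featureCounts 1.4.6-p1, STAR 2.3.0e, DESeq2 1.8.2, FastQC 0.10.1 and SAMtools 0.1.18. No source used here gives settings, annotation release or strand. Symbols, coordinates and exon lengths came from GENCODE M21 (GRCm38, the assembly of mm10), which matched 36602 of 38355 identifiers. The 1753 others held 0.263% of counts.

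KO and WT, taken from the sample titles, were compared with edgeR 4.0.16 (R 4.3.3): filterByExpr, TMM factors, robust quasi-likelihood fit with group alone, Benjamini-Hochberg adjustment over 16068 genes at 0.05. The SE is the size of the log2 fold change over the square root of F, and 95% intervals use its t distribution. The 10 genes held 412 to 105204 counts per library. Counting error is therefore a few percent or less, which for Nkx6-1 in KO is as large as the spread between libraries. No pair of libraries of a group agreed within sampling noise, and all 8 were counted.

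The members, gene lists, named genes and alternatives were chosen with earlier results of these data known. Named genes were the 10, up to 3 genes of smallest p per other list, overlapping genes of at least 1 CPM, the 6 most like the SOXB1 mean, and Prdm12. Alternatives were DESeq2 1.42.0, median-ratio factors, library totals, other filters, a replicate block, a muscle and mesenchyme covariate, a thinned WT replicate 1, and each library left out. Figures were drawn with matplotlib 3.10.9. Some of the genes this rule names are not reported here.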

Additional observations from a re-analysis of the deposited data

Results flagged for a closer look

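In 5 of 50 groups of 4 libraries checked, 1 library lay far from the others by Dixon's ratio, the gap to its nearest neighbour over the whole range of the group, past its 95% critical value, which chance passes in about 1 in 20. Sox1 in KO (ratio 0.845) was set apart by replicate 1, at 23.8 CPM beside 16.95 to 18.01 CPM in the other KO libraries. Vim in KO (ratio 0.867) was set apart by replicate 3, at 1410 CPM beside 1499 to 1513 CPM. The mean log2 CPM of the wider progenitor and radial glia genes in KO (ratio 0.849) was 6.61 in replicate 1 beside 6.503 to 6.519 in the others. The mean log2 CPM of the proliferation genes in WT (ratio 0.85) was 7.78 in replicate 1 beside 7.56 to 7.60 in the others. The mean log2 CPM of the sensory neuron genes in WT (ratio 0.863) was 4.41 in replicate 1 beside 4.91 to 4.99 in the others.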

How the results depend on the processing

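Of the 10 genes, 0 passed under every alternative run. Of the values of their log2 fold changes under alternatives, 152 kept their direction and 8 did not, namely Irx3 in 4 of the fits that leave out 1 library (range −0.071 to 0.17) and, with the muscle and mesenchyme covariate, Sox1 (0.23), Sox2 (0.023), Pax6 (0.20) and Msi1 (0.08). The median of the 10 ranged from −0.15 to −0.04 with 1 library left out and was 0.043 with the covariate. The cause was not tested. Over all genes, 9 were called higher and 39 lower. There were 19 and 81 with DESeq2, 2 and 14 with a replicate block, and 0 and 1 with the covariate (174 and 289 at an unadjusted p under 0.05). Without WT replicate 1 there were 21 and 112, and without any other single library 3 to 5 and 12 to 27. Over all genes, the deviations of same-numbered KO and WT libraries correlated at −0.11, 0.28, −0.19 and −0.01 for numbers 1 to 4, and 1 of 8 libraries correlated best with its own number, so the numbers were not taken to pair the libraries. With the replicate block the SE was 0.06 for Sox1, 0.05 for Sox3 and 0.06 for Irx3, the smallest edgeR adjusted p of the 10 was 0.131 (Sox3), and 0 of the sensory neuron and 0 of the crest and ganglion glia genes passed.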
